A study of Mus musculus with 5 samples.

Results

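The xenobiotic phase I enzymes and the aryl hydrocarbon receptor (AhR) axis were followed in ID8 cells, a mouse ovarian surface epithelial cancer line, grown in serum or in tumour ascites. The list held 9 genes, namely Cyp3a13, Cyp1a1, Cyp1b1, Ces2g, Aldh3a1, Ephx1, Por, Ahr and Tiparp. Every probe set annotated to exactly 1 of them was taken, which gave 13 probe sets for 8 genes, out of 22626 probe sets and 12393 genes on the array. No probe set was annotated to Por in the table used, so Por was not analysed here. The genes were selected on earlier results of the same ascites and FBS arrays. Their differences and intervals are therefore a description, and the counts of members past a threshold, given only beside the share of all genes, test nothing about the list.

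Total RNA was hybridised to an Affymetrix mouse array. The FBS group held 3 arrays (replicates 1, 2 and 3) of parental ID8 cells in DMEM with 10% fetal bovine serum (FBS). The ascites group held 2 arrays (replicates 2 and 3) of ID8 cells kept for 7 days in medium with 10% ascites that had formed in ID8-bearing mice. The sources do not say whether the ascites medium also contained serum, whether the ascites was pooled or freed of cells, or whether replicates were separate cultures. Intervals and p-values therefore measure the spread between arrays, which may be technical.

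Phase I enzymes add or unmask a reactive group on a foreign or endogenous lipophilic compound, and phase II enzymes then conjugate it. Cytochrome P450s are heme monooxygenases that receive electrons from the reductase encoded by Por. Carboxylesterases, epoxide hydrolases and aldehyde dehydrogenases are the hydrolytic and dehydrogenating members of the same system, which is best known in liver and gut. AhR is a ligand-activated transcription factor that pairs with ARNT, binds the core GCGTG in DNA and induces Cyp1a1, Cyp1b1, Aldh3a1 and Tiparp. Tiparp encodes a mono-ADP-ribosyltransferase that represses AhR in turn.

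The promoters of the AhR targets are shown to let the core element be seen beside the array values, and that of Cyp3a13 because its signal differed most among the members. Each window runs 5′ to 3′ along the gene, from 250 bases before to 50 bases after the transcription start, in RefSeq's GRCm38.p6. The build of the array annotation is not given in the sources used here, and the genes were matched by symbol. Capitals mark GCGTG, read as CACGC where it lies on the opposite strand. The windows lie at chr9:57697363-57697662 on the plus strand (Cyp1a1), chr17:79715012-79715311 on the minus strand (Cyp1b1), chr3:65528197-65528496 on the plus strand (Tiparp) and chr5:137921570-137921869 on the minus strand (Cyp3a13).
Cyp1a1: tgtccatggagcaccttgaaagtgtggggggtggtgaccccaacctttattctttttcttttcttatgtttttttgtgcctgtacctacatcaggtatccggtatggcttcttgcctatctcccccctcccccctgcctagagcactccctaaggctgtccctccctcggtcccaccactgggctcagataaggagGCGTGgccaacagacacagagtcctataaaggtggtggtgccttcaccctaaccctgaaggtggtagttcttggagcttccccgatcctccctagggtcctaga
Cyp1b1: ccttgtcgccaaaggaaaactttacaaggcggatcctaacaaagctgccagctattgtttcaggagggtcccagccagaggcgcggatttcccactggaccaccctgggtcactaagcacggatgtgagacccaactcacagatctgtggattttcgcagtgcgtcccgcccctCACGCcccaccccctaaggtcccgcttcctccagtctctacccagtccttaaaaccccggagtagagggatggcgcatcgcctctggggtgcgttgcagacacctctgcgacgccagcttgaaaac
Tiparp: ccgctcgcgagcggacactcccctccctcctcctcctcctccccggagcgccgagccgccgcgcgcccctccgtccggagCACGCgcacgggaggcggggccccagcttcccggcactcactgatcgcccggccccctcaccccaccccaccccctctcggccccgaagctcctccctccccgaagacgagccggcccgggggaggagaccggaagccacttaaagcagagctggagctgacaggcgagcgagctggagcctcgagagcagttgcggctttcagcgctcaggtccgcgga
Cyp3a13: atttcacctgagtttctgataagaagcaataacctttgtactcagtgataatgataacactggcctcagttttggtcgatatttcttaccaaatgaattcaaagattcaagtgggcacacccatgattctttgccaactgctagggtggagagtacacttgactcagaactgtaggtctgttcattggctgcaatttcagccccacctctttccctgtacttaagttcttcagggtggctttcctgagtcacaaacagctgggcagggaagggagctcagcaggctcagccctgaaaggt

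A promoter window was held for 7 of the 9 genes, all but Aldh3a1 and Ahr. The core GCGTG, searched on both strands, was present in 4 of these 7 windows, against 32.4% of all 32851 windows. It began 54 bases before the start of Cyp1a1, 76 bases before that of Cyp1b1 and 170 bases before that of Tiparp. The fourth was the unmeasured Por, with 3 matches. The longer form TNGCGTG, which contains the core, was in 0 of the 7 windows and in 5.07% of all. The antioxidant response element core TGACNNNGC was in 0 of the 7 and in 12.4% of all. These are letter matches in a short window, and say nothing of binding.

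Cells grown in ascites had higher signals for Cyp3a13, Ces2g, Aldh3a1 and Ephx1, and a lower signal for Cyp1b1. Tiparp was lower on both of its brighter probe sets by a smaller amount, the Ahr difference was small, and Cyp1a1 read the same in both groups. The genes grouped as AhR targets thus did not all move together: Aldh3a1 was higher in ascites and Cyp1b1 lower. Tiparp was lower in mean, with intervals that include 0. Cyp1a1 was flat at a dim signal, where a change may not have been visible. By limma across 12393 genes, with Benjamini-Hochberg adjustment and a threshold of 0.05, 4 of the 8 measured genes passed, against 5.28% of all genes. Of these, 3 rose (2.69% of all genes) and 1 fell (2.59%). The arrays of the groups did not overlap for 7 of the 8 genes, against 38% of all genes, with ascites above in 4 (18.6%) and below in 3 (19.4%). The list was chosen with this contrast known, so nothing is read from these counts. In bulk RNA, fewer cells that express a gene and less RNA per cell cannot be told apart.

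The member counts depended on single arrays. Without FBS replicate 3, 6 of the 8 genes passed, against 20.1% of all genes, and the additional genes were Ephx1 and Tiparp. Leaving out FBS replicate 1, FBS replicate 2, ascites replicate 2 or ascites replicate 3 left 0 genes past the limma threshold, members or others. At an unadjusted p below 0.05 these settings gave 4, 5, 5 and 4 members and 2088, 2016, 2748 and 2415 genes of all. FBS replicates 1 and 2 were nearly alike, with an SD of 0.117 between them over all genes, while FBS replicate 3 stood 0.427 from each. Between the ascites arrays this SD was 0.239. Array medians lay between 7.39 and 7.47 on the log2 scale.

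**Figure D1:**
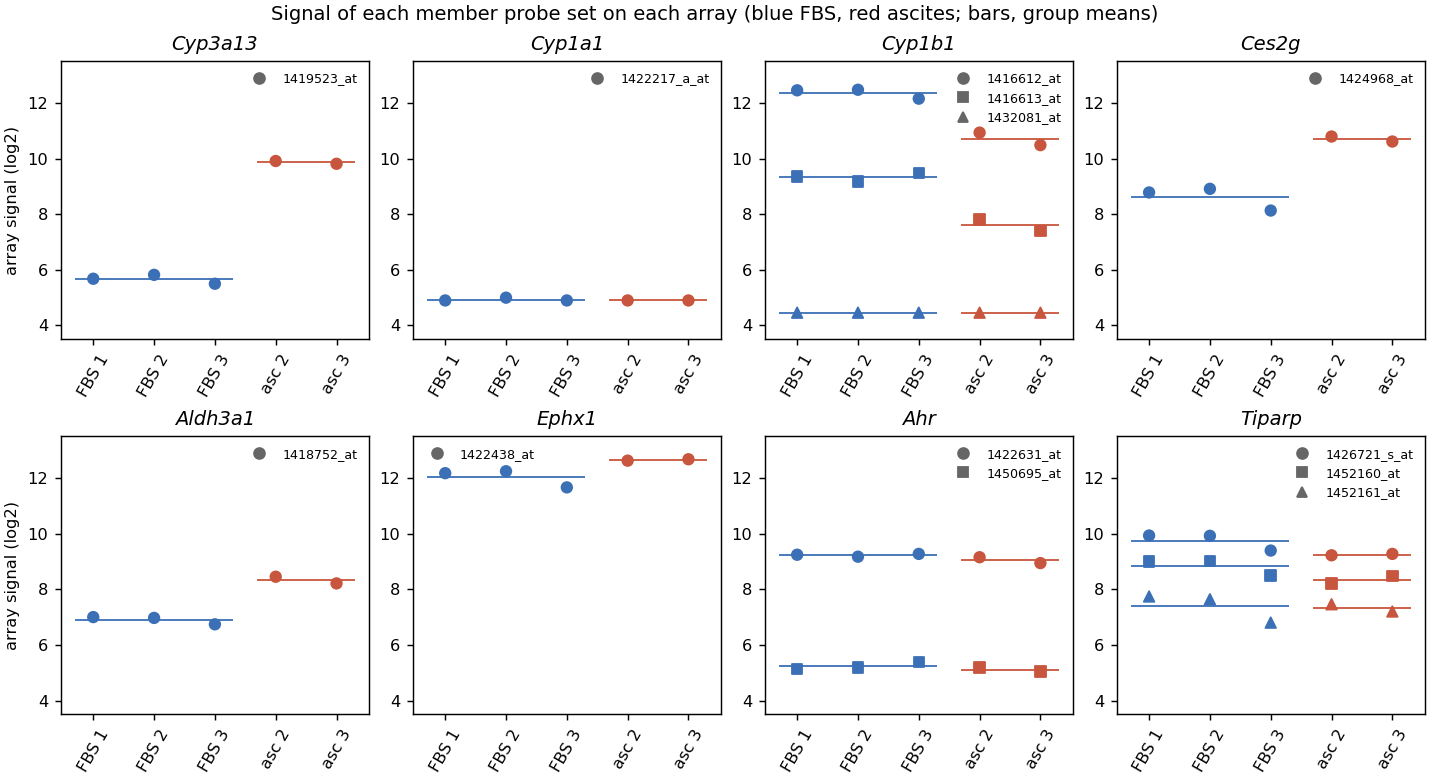
Log2 array signal (y axis) of every member probe set on each of the 5 arrays (x axis), 1 panel per gene, with FBS arrays in blue, ascites arrays in red, marker shapes for probe sets and horizontal bars at group means. Cyp3a13 stands at 5.50 to 5.82 in FBS and 9.81 to 9.91 in ascites, the upper Cyp1b1 probe sets drop in ascites, and Cyp1a1 lies at 4.9 to 5.0 throughout.

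Among the P450s, Cyp3a13, a member of the CYP3A subfamily that oxidises steroids and many drugs, differed most. Its probe set read 5.68, 5.82 and 5.50 on FBS replicates 1, 2 and 3, and 9.91 and 9.81 on ascites replicates 2 and 3. Both ascites arrays lay far above all FBS arrays, and the spread within each group was small. The means were 5.67 ± 0.16 (SD, n = 3) and 9.86 ± 0.07 (SD, n = 2), a difference of 4.19 on the log2 scale (SE 0.11, 95% interval 3.89 to 4.50), or 18.3-fold. The 6 single-array differences ran from 3.99 to 4.41. The rise ranked 6 of 12393 genes. On the dimmest array 29.6% of probe sets were at or below its signal, and on the brightest 78.3%. The values carry no detection call, so the FBS level was not shown to exceed background and the fold is uncertain.

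Cyp1a1, the classical AhR-induced P450, did not share this pattern. It read 4.90, 5.0 and 4.90 in FBS and 4.90 and 4.90 in ascites, so the groups coincided. The difference was -0.03 (SE 0.06, interval -0.19 to 0.12). Only 22.0% to 23.6% of the probe sets on an array were at or below its signal. Whether transcript was present at all cannot be judged from these values, and a low signal also limits any change that could be seen. The probe set is of the type that Affymetrix marks for alternative transcripts of 1 gene.

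Cyp1b1 encodes a P450 found mainly outside the liver, which hydroxylates estradiol and activates polycyclic aromatic hydrocarbons. Its brightest probe set read 12.45, 12.47 and 12.15 in FBS and 10.93 and 10.48 in ascites. Every ascites array lay below every FBS array, by 1.22 to 1.99. The means were 12.36 ± 0.18 (SD, n = 3) and 10.71 ± 0.32 (SD, n = 2), a difference of -1.65 (SE 0.18, interval -2.15 to -1.15), or 3.14-fold lower in ascites. The fall ranked 143 of 12393 genes.

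A second Cyp1b1 probe set gave nearly the same difference at a dimmer signal. It read 9.36, 9.17 and 9.48 in FBS and 7.80 and 7.4 in ascites, a difference of -1.74 (SE 0.16, interval -2.18 to -1.29). On both of these probe sets ascites replicate 3 was the lower, by 0.45 and 0.40. The third probe set read 4.46 on all 5 arrays and showed no difference. It was based on another source transcript, and only 16.9% to 17.3% of probe sets were at or below it. Averaging all 3 probe sets would give -1.13 for the gene.

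Among the hydrolases, Ces2g, a carboxylesterase of the CES2 group that cleaves ester and amide bonds, was higher in ascites. It read 8.78, 8.91 and 8.13 in FBS and 10.79 and 10.61 in ascites. The ascites arrays lay 1.70 to 2.66 above the FBS arrays, and FBS replicate 3 lay 0.72 below the mean of the other FBS arrays. The means were 8.61 ± 0.42 (SD, n = 3) and 10.70 ± 0.13 (SD, n = 2), a difference of 2.09 (SE 0.27, interval 1.37 to 2.82), or 4.27-fold. The difference was 1.86 without FBS replicate 3. The rise ranked 39 of 12393 genes.

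Ephx1, the microsomal epoxide hydrolase that turns reactive epoxides into diols, gave a bright signal in both groups. It read 12.17, 12.24 and 11.66 in FBS and 12.62 and 12.67 in ascites. The groups did not overlap, but FBS replicate 3 was 0.55 below the other FBS arrays, nearly as far as the groups were apart. The means were 12.02 ± 0.32 (SD, n = 3) and 12.65 ± 0.04 (SD, n = 2), a difference of 0.62 (SE 0.20, interval 0.08 to 1.17), or 1.54-fold. It was 0.44 without FBS replicate 3.

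Aldh3a1, a dehydrogenase that clears aromatic and medium-chain aldehydes, read 7.00, 6.97 and 6.74 in FBS and 8.45 and 8.21 in ascites. All ascites arrays were above all FBS arrays, by 1.21 to 1.71. The means were 6.90 ± 0.14 (SD, n = 3) and 8.33 ± 0.17 (SD, n = 2), a difference of 1.43 (SE 0.12, interval 1.09 to 1.76), or 2.69-fold. The rise ranked 105 of 12393 genes. Aldh3a1 was the 1 AhR-battery member of the list with a higher signal in ascites.

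The receptor gene Ahr differed little. Its brighter probe set read 9.24, 9.17 and 9.27 in FBS and 9.15 and 8.94 in ascites. Ascites replicate 2 lay only 0.02 below the lowest FBS array, so the lack of overlap was marginal. The difference was -0.18 (SE 0.08, interval -0.41 to 0.05), which is 0.88-fold. The dimmer Ahr probe set read 5.13, 5.19 and 5.38 in FBS and 5.19 and 5.04 in ascites, where the groups overlapped and the difference was -0.12 (SE 0.10, interval -0.40 to 0.16).

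Tiparp, the AhR-induced repressor of AhR, was measured by 3 probe sets that did not give a single answer. The brightest read 9.93, 9.92 and 9.39 in FBS and 9.22 and 9.27 in ascites, with ascites below all FBS arrays. Its difference was -0.50 (SE 0.20, interval -1.04 to 0.03), or 1.42-fold lower. It is of the type that Affymetrix marks as matching more than 1 transcript.

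The second Tiparp probe set read 9.0, 9.02 and 8.50 in FBS and 8.20 and 8.47 in ascites, with a difference of -0.51 (SE 0.21, interval -1.06 to 0.05). The third read 7.74, 7.64 and 6.80 in FBS and 7.46 and 7.20 in ascites. Here FBS replicate 3 was the lowest of all arrays, the groups overlapped, and the difference was -0.06 (SE 0.33, interval -0.97 to 0.84). FBS replicate 3 was below the other FBS arrays on each of the 3, by 0.54, 0.51 and 0.89. Without that array the brightest probe set differed by -0.68.

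**Figure D2:**
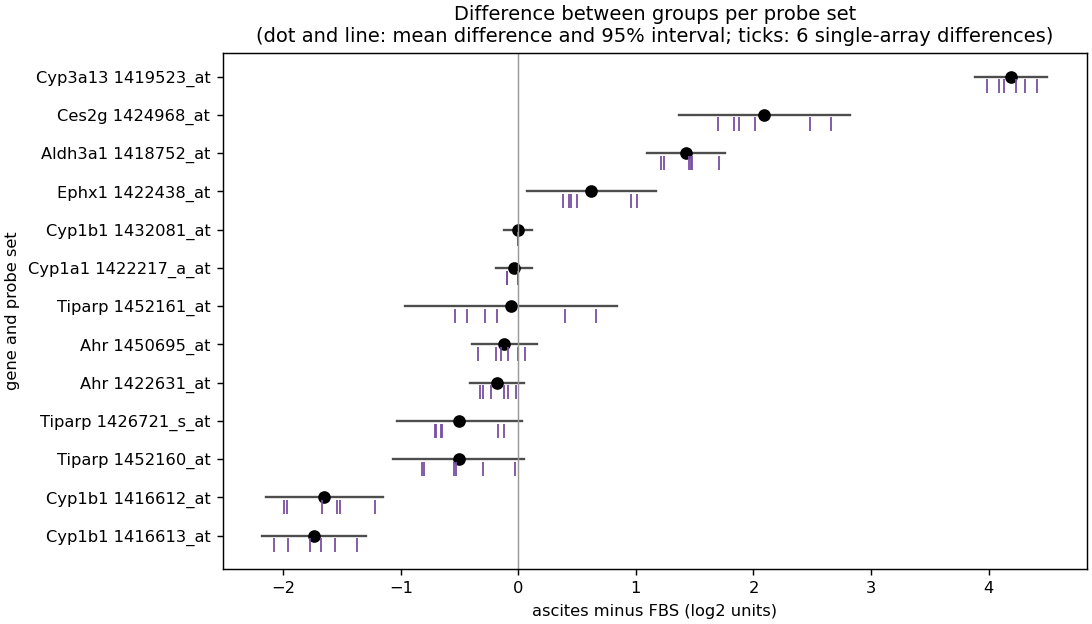
Difference between ascites and FBS (x axis, log2 units) for each of the 13 member probe sets (y axis), with the mean difference as a dot, its 95% interval as a line and the 6 single-array differences as ticks. The intervals of Cyp3a13, Ces2g, Aldh3a1 and Ephx1 lie above 0 and those of both brighter Cyp1b1 probe sets below it, while the other 7 include 0.

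FBS replicate 3 bore on several members in the same way. It was the lowest FBS array for Cyp3a13, Ces2g, Aldh3a1, Ephx1, the brightest Cyp1b1 probe set and all 3 Tiparp probe sets. It was the highest FBS array for both Ahr probe sets and the second Cyp1b1 probe set. Leaving it out made the differences of Ces2g, Ephx1, Aldh3a1 and Cyp3a13 smaller, at 1.86, 0.44, 1.35 and 4.11. On the brightest probe sets of Cyp1b1 and Tiparp it made the differences larger in size, at -1.76 and -0.68. On the second Cyp1b1 probe set, where this array was the highest in FBS, the difference became smaller in size. That of the brighter Ahr probe set also became smaller, at -0.16. Each kept its direction.

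The rest of the pathway was described through 7 gene lists written from textbook knowledge, without the members. Of 180 measured genes in these lists, 11 rose and 1 fell by limma after adjustment over all genes, which is 6.67% against 5.28% of all genes. The median difference over the 180 was 0.00083, and over all 12393 genes it was 0. Single arrays decided these counts too: 24 rose and 16 fell without FBS replicate 3, which is 22.2% against 20.1% of all genes. None of the 180 passed without FBS replicate 1, FBS replicate 2, ascites replicate 2 or ascites replicate 3, when 36, 32, 48 and 39 had an unadjusted p below 0.05. With all arrays 48 had one, which is 26.7% against 24.2% of all genes.

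The other xenobiotic P450s of the CYP1, CYP2 and CYP3 families were mostly dim, with a median signal of 4.20 to 4.33 over the arrays, under that of Cyp1a1, so a change in many of them may not have been visible. None of 28 measured genes passed the limma threshold and 1 had an unadjusted p below 0.05, with 13 higher, 14 lower and a median difference of -0.0033. That gene was Cyp2s1, a P450 expressed in epithelia outside the liver, which read 12.47, 12.49 and 11.13 in FBS and 10.40 and 10.15 in ascites. Ascites arrays lay below all FBS arrays, with a difference of -1.76 (SE 0.49, adjusted p = 0.127 by limma). Without FBS replicate 3 it was -2.21 and passed (adjusted p = 0.00871), and Cyp2d22 then also fell (by 0.48). The CYP3A relatives Cyp3a11, Cyp3a16, Cyp3a25 and Cyp3a44 differed by -0.15, -0.14, -0.10 and -0.04, but read only 3.02 to 4.24, so they do not show whether Cyp3a13 differed alone in its subfamily. Cyp1a2, the neighbour and relative of Cyp1a1, differed by -0.06 at 5.13 to 5.27.

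Among other phase I hydrolases, dehydrogenases and oxygenases, 3 of 39 genes rose and 0 fell, with a median of 0.08, while 13 had an unadjusted p below 0.05. Adh7, an alcohol dehydrogenase that also oxidises retinol, read 7.79, 7.78 and 8.34 in FBS and 10.39 and 10.56 in ascites (difference 2.51, SE 0.21, adjusted p = 0.0191 by limma). Its second probe set differed by 3.48. Xdh, xanthine dehydrogenase, rose by 1.0 (SE 0.13, adjusted p = 0.0378), and the aldo-keto reductase gene Akr1b8 by 0.31 (SE 0.05, adjusted p = 0.0438). Genes of the list that did not pass differed by more than these in both directions, from -2.14 (Aox3) to 1.83 (Aldh1a7). Other carboxylesterases did not pass, and Ces2e, from the same group as Ces2g, differed by 1.02 at a dim signal (SE 0.25, adjusted p = 0.0987). Aldh3a2, the closest listed relative of Aldh3a1, differed by 0.08, but by -0.245 without FBS replicate 3. Ephx2, the soluble epoxide hydrolase, differed by 0.08 at a dim signal. In this list 7 genes rose and 5 fell without FBS replicate 3.

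Of 16 genes of P450 electron transfer and heme supply, 2 rose and 0 fell, although 9 were lower and the median was -0.19. Cyb5r1, a cytochrome b5 reductase family gene, read 10.57, 10.70 and 10.79 in FBS and 12.00 and 12.42 in ascites (difference 1.52, SE 0.15, adjusted p = 0.0243 by limma). Cpox, which catalyses a late step of heme synthesis, rose by 0.63 (SE 0.08, adjusted p = 0.0333). Genes of the list that did not pass differed by more than Cpox in both directions, from -1.02 to 1.13. Alas1, the rate-limiting enzyme of heme synthesis, differed by -0.18 and did not pass, nor did Cyb5a, which can donate electrons to P450s (-0.42, SE 0.18). Without FBS replicate 3, 5 rose and 1 fell, and the difference of Alas1 turned sign, to 0.12.

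In the list of AhR partners, repressor and other responsive genes, 3 of 24 rose and 0 fell, with a median of 0.09. They were Xdh, which both lists hold, Arntl, which encodes the clock factor BMAL1 (8.38, 8.19 and 8.47 in FBS, 9.43 and 9.25 in ascites, adjusted p = 0.0294 by limma), and Slc7a5, a large neutral amino acid transporter (difference 0.95, SE 0.13, adjusted p = 0.0383). The partner gene Arnt differed by -0.50 (SE 0.17, adjusted p = 0.174), with 0.13 on its other probe set, and the AhR repressor gene Ahrr by 0.11 at a dim signal. Nqo1, a quinone reductase induced through both AhR and NRF2, read 7.90, 7.86 and 9.52 in FBS and 9.64 and 9.40 in ascites. FBS replicate 3 lay among the ascites arrays, and the difference was 1.09 (SE 0.59, adjusted p = 0.369). Without that array, 5 genes of the list rose and 1 fell.

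Of 16 xenobiotic nuclear receptors and partner factors, 0 passed by limma and 4 had an unadjusted p below 0.05, with a median of -0.10. The gene with the smallest p was Foxa1, a pioneer factor of endodermal and other epithelia (-1.55, SE 0.30, adjusted p = 0.0659). Nr1i2 and Nr1i3 encode the receptors PXR and CAR that induce CYP3A and CYP2B genes in liver. They read 4.74 to 5.25 and 3.52 to 3.76 over the 5 arrays and differed by 0.16 and 0.13. Both signals were dim, so a change in either may not have been visible. In this list 2 fell (Nr1h4 and Cebpa) and 0 rose without FBS replicate 3.

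Of 37 phase II conjugation genes, 4 rose and 0 fell, with a median of 0.00. The glutathione S-transferase genes Gsta2 and Gsta3 rose most. Gsta2 read 5.99, 5.59 and 6.95 in FBS and 11.67 and 11.56 in ascites, and Gsta3 7.72, 7.67 and 6.83 in FBS and 10.31 and 10.62 in ascites. Their limma adjusted p values were 0.0191 and 0.0257, and close paralogs may not be separated by these probe sets. Gstt2 rose by 0.61 at a dim signal and Gstp1 by 0.34 (adjusted p = 0.0459 and 0.0416). Without FBS replicate 3, 9 rose and 3 fell. Of 23 P450s of endogenous substrates 1 fell and 0 rose, with a median of -0.01. It was Cyp51, the sterol demethylase of cholesterol synthesis (10.75, 10.62 and 11.11 in FBS, 8.33 and 8.48 in ascites, adjusted p = 0.0173 by limma), and 2 fell without FBS replicate 3.

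**Figure D3:**
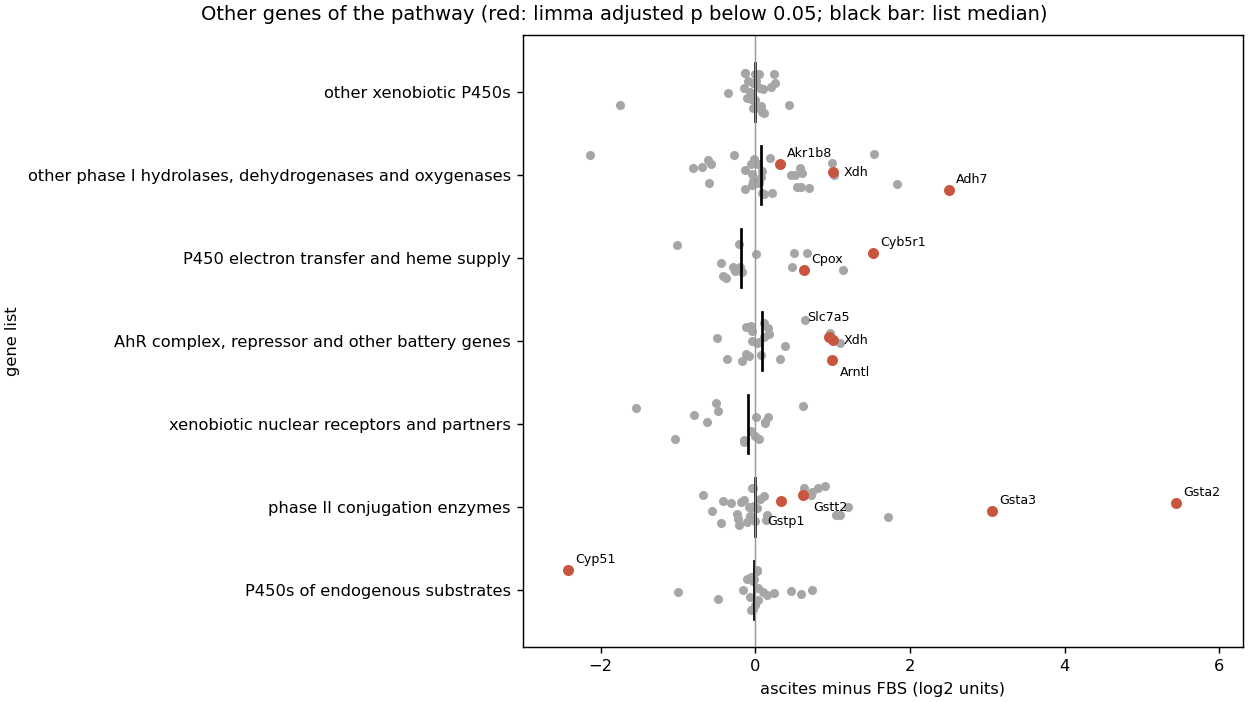
Difference between ascites and FBS (x axis, log2 units) for each measured gene of the 7 pathway lists (y axis), members left out, with genes past the limma threshold in red and named, others in grey, and list medians as black bars. List medians lie between -0.19 and 0.09, and Gsta2, Gsta3 and Adh7 are farthest to the right.

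Over the 5 arrays, the members whose signal spanned at least 1 log2 unit were set beside the genes with the closest profile, as the root mean square difference between log2 values centred on each gene's own mean. This is a description over 5 arrays of 2 groups, and many genes that differ between the groups by a like amount will lie close. Nearest to Cyp3a13 were Cth, cystathionine gamma-lyase (0.19), and P2rx3, an ATP-gated channel gene (0.29). Nearest to Cyp1b1 were Lbh (0.04) and the mitotic cyclin gene Ccnb2 (0.09). Nearest to Ces2g were Ndrg4 (0.16) and Nppb, a natriuretic peptide gene (0.16). Aldh3a1 lay nearest to Efhd1 (0.07) and the transcription factor gene Atf5 (0.09), and Ephx1 nearest to Prkce (0.03) and Herpud1 (0.04). In the closest case, Lbh read 10.31, 10.22 and 9.98 in FBS and 8.72 and 8.25 in ascites, the order of arrays seen for Cyp1b1 apart from FBS replicates 1 and 2.

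**Figure D4:**
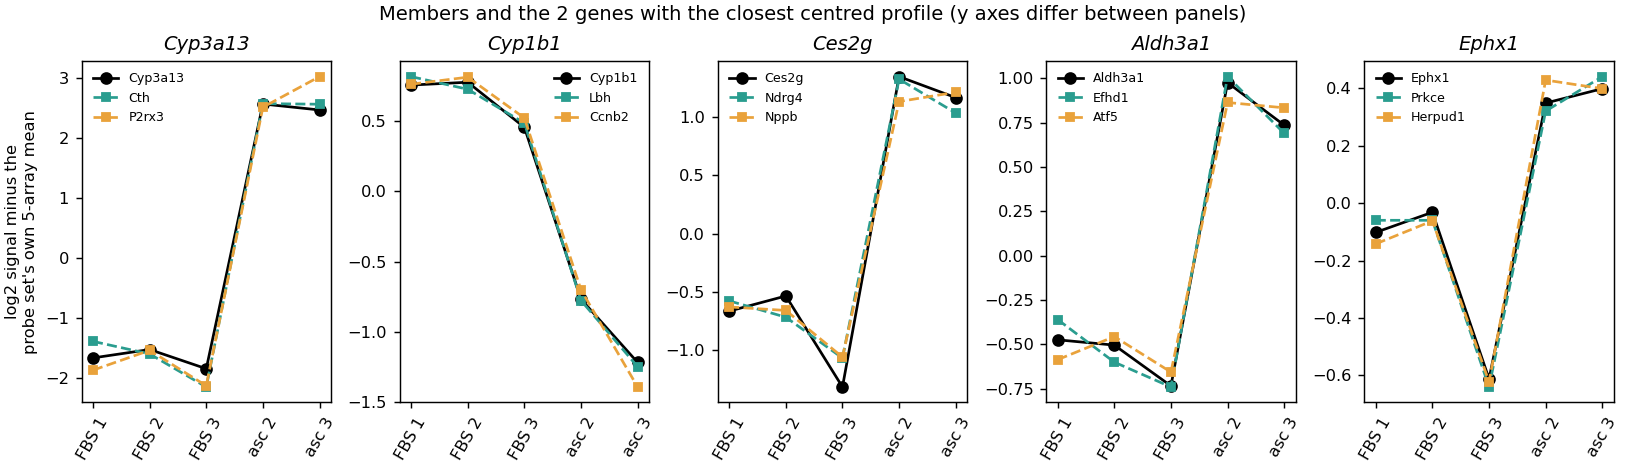
Log2 signal minus each probe set's own mean over the 5 arrays (y axis, scaled separately in each panel) on each array (x axis) for 5 members in black and the 2 genes with the closest profile in colour. Lines only join the values of 1 gene, and the largest root mean square difference shown is that of P2rx3 from Cyp3a13, at 0.29.

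Markers of cell types in which phase I enzymes are abundant, or that ascites could carry, were read on the same arrays. None of 17 hepatocyte markers passed by limma (2 had an unadjusted p below 0.05), with 5 higher and 12 lower. The gene with the smallest p was Ahsg, which differed by -0.755 (adjusted p = 0.0699 by limma). The albumin gene Alb read 5.20 ± 0.05 in FBS and 5.23 ± 0.00 in ascites, a dim signal where a change may not have been visible. The summed linear signal of the 17 was 793 to 816 in FBS and 715 to 807 in ascites. Of 7 intestinal markers 1 rose, the fatty acid binding protein gene Fabp2, by 0.40 at a dim signal (adjusted p = 0.0301). The summed signal of the 7 was 294 to 303 in FBS and 283 to 285 in ascites.

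None of the 14 macrophage, 13 lymphocyte, 10 neutrophil and mast cell, 10 endothelial, 10 fibroblast or 6 erythroid and platelet markers passed, and 1, 3, 1, 3, 2 and 0 of them had an unadjusted p below 0.05. The macrophage sum was 726 to 799 in FBS and 765 to 873 in ascites. Without FBS replicate 3 the fibroblast markers Col1a1, Col3a1, Dcn and Pdgfra, the endothelial marker Esam and the mast cell marker Cma1 fell, and the lymphocyte marker Cd2 rose. The fibroblast sum was 7589 to 21063 in FBS and 6603 to 9050 in ascites, and the list median was -0.08. Dcn, by far the brightest of the 10, dominated this sum. It read 14.32, 14.3 and 12.81 in FBS and 13.09 and 12.62 in ascites, so FBS replicate 3 lay between the ascites arrays. Col1a1 differed by -1.44 (adjusted p = 0.0683 by limma, 0.00791 without FBS replicate 3).

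Of the 12 markers of mesothelium and ovarian surface epithelium, the lineage of ID8 cells, 2 fell (Krt18 by 1.43 and Krt19 by 0.88 on the log2 scale, adjusted p = 0.0361 and 0.0428) and 10 were lower, with a median of -0.97. Differences of at least 2-fold were seen in 5 of the 12. Besides Krt18 these were Bnc1 (-3.19), Upk3b (-2.30), Krt7 (-2.002) and Wt1 (-1.43). None of these others passed (adjusted p = 0.0605, 0.160, 0.260 and 0.0950 by limma), although Bnc1, Upk3b and Krt7 differed by more than Krt18. Without FBS replicate 3, 8 fell. Their summed linear signal was 46373 to 81638 in FBS and 27567 to 32883 in ascites. The keratin genes Krt8, Krt18 and Krt19 were bright in both groups. The keratin gene Krt7 was dimmer, at 5.66 to 8.08 in FBS and 5.12 to 5.37 in ascites. Its lowest FBS value was that of FBS replicate 3, near the ascites arrays. Cdh1 read 5.74 in FBS and 5.80 in ascites, as group means. Most of this list, and the fibroblast markers that fell without FBS replicate 3, were lower in ascites, while the members differed in both directions. Whether these markers had a part in the members' differences was not tested.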

How the data were processed

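The deposited table holds log2 signals, judged from their range, with 1 value per probe set for each of 5 arrays. Per the submitters' processing notes, the authors used Affymetrix Expression Console; no source used here gives the version or the summarisation method. The values were used as deposited, with no detection call and no filter. Of 22690 probe sets, 64 controls were left out. The platform annotation named 1 gene for 20380 probe sets and several for 691, and 1555 were unlisted. For each gene the probe set of highest mean signal was taken. The comparison of groups used limma 3.58.1 (R 4.3.3; lmFit, eBayes, two-sided, Benjamini-Hochberg, threshold 0.05; 3 residual and 1.33 prior degrees of freedom), tested on simulated data first. The simulated noise was independent and equally large on all arrays, unlike the spread between these arrays. It therefore does not show how reliable the calls are here. Values per member probe set come from the same fit over all 22626 probe sets. With 3 and 2 arrays, their number limits the precision.

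Named genes were all members, up to 4 passing genes per list with the largest change (or the 1 with the smallest p), and the 2 nearest profiles of members spanning at least 1 log2 unit. Other relatives and the cell type markers were named after their values were seen. Members and lists were chosen with earlier results of these data known. The alternatives were other probe set rules, quantile normalization, a filter on dim genes, other eBayes priors, array weights, a replicate block, averaging of FBS replicates 1 and 2, and leaving out each array.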

Additional observations from a re-analysis of the deposited data

How the results depend on the processing

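Each of Cyp3a13, Cyp1b1, Ces2g, Aldh3a1, Ephx1, Ahr and Tiparp kept its direction under all 13 alternatives. Cyp3a13 ranged from 4.11 to 4.27, Ces2g from 1.86 to 2.25, Aldh3a1 from 1.31 to 1.55, Ephx1 from 0.44 to 0.73, Cyp1b1 from -1.88 to -1.13, Ahr from -0.29 to -0.08 and Tiparp from -0.68 to -0.36. Cyp1a1 ranged from -0.06 to 0 and had no value without the lowest 25% of genes. The calls did not hold in the same way. Without single replicates the genes past the threshold ranged from 0 to 2494, the members from 0 to 6 and the pathway genes from 0 to 40; only the omission of FBS replicate 3 gave more than 0. A group left with 1 array was assumed to vary like the other. With FBS replicates 1 and 2 averaged as 1 sample, 0 genes, 0 members and 0 pathway genes passed. With array weights 2612 genes and 50 pathway genes passed, and with every probe set as its own feature 982 probe sets did, out of more features tested. The causes were not tested. Over the alternatives, the 23 other named genes past the threshold stayed past it in 153 values and lost it in 143. The 32 not past it gained it in 34 and stayed out in 369. Some named genes, Bnc1, Upk3b, Krt7 and Wt1 among them, were not in these counts. No called value changed sign, while 9 values past the threshold in neither setting did. With the replicate block 0 genes, 0 members and 0 pathway genes passed, at 1891 genes with an unadjusted p below 0.05. For arrays with equal numbers, deviations from the group means correlated at 0.03 and 0.04. With 2 ascites arrays these deviations mirror each other, so the values cannot decide whether equal numbers mark a shared culture. Cyp1a1, the third Cyp1b1 probe set and most other xenobiotic P450s, the CYP3A relatives among them, lie so low that the unknown background limits what could be seen. The same holds for Nr1i2 and Nr1i3.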
